A study of Mus musculus with 12 samples.

Results

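The mitochondrial genome of the mouse encodes 37 genes, and all of them were taken from the 57180 genes of the deposited tables by a gene symbol that starts with mt-. They comprise 13 protein-coding genes, 2 ribosomal RNA (rRNA) genes and 22 transfer RNA (tRNA) genes. RNA was sequenced from 12 libraries of 1 picked clone of E14 mouse embryonic stem cells (ESCs), which carries the doxycycline activator TetON3G and a doxycycline-switched repressor at the *Tigre* locus. Guide RNAs steer this repressor to start sites and lower transcription there (CRISPR interference). The Neg cells carry scramble guides and the 3xKD cells carry guides against *Pcx*, *Me1* and *Me2*, enzymes that pass pyruvate to oxaloacetate and malate back to pyruvate. Each was sequenced as ESCs in N2B27 with 2i and LIF and as EpiLCs day 2, formative cells made from ESCs with Activin A, Fgf2 and XAV939, with 3 libraries in each of the 4 groups. All 4 groups share the clone, the drug selection and 5% O2. The study lists the Neg and the 3xKD cells as 1 line each, so guide set and line cannot be told apart. The doxycycline that switches the repressor on is known from the study's text alone, where a figure legend gives Neg and 3xKD cells of both states as treated. The labels name neither doxycycline nor an untreated group.

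Mitochondrial DNA is transcribed from both strands into long RNAs that cover many genes, and the tRNAs between the genes mark where these RNAs are cut. The proteins made from the 13 mRNAs are core subunits of complexes I, III, IV and V of the respiratory chain, and every other protein of these complexes, as well as all of complex II, is encoded in the nucleus. Neighbouring genes of 1 long transcript can still differ in level, because their RNAs differ in stability once they are cut apart. The polymerase and its factors, the nucleases and the RNA-binding proteins that act on mitochondrial RNA are nuclear gene products.

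The libraries held between 11221023 and 19652197 counts. The guide targets checked the labels: the log2 fold change of 3xKD against Neg was -1.14 for *Pcx*, -0.89 for *Me1* and -0.95 for *Me2* in ESCs and -1.05, -1.05 and -0.98 in EpiLCs. The state was checked by markers. The 10 naive markers summed to between 4027.7 and 5342.6 CPM (counts per 1e6, TMM-normalized) in the ESC libraries and between 342.9 and 489.4 CPM in the EpiLC libraries, and the 9 formative and primed markers to between 405.9 and 476.3 CPM against 2068.7 and 3873.8 CPM. Both sums differed between Neg and 3xKD within each state. In EpiLCs the naive sum was 475.7 to 489.4 CPM in 3xKD and 342.9 to 357.7 CPM in Neg. The formative and primed sum was 2068.7 to 2112.9 CPM in 3xKD and 3493.5 to 3873.8 CPM in Neg. In ESCs both sums were lower in 3xKD. Not every marker followed its sum. In EpiLCs 8 of the 10 naive markers and 0 of the 9 formative and primed markers had a 3xKD-to-Neg log2 fold change above 0. In ESCs it was 1 of the 10 and 4 of the 9. An effect of the knockdown and a difference in stage between the lines cannot be told apart in these comparisons. One label field gives ESCs for every Neg library and EpiLCs for every 3xKD library, and the titles were followed. The study's methods describe replicates as biological in general, and the labels do not say how the 3 libraries of a group were grown, from 1 clone. The p-values measure the spread between these libraries.

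On GRCm39, 28 of the 37 genes lie on the plus strand of the mitochondrial chromosome (16299 bases) and 9 on the minus strand. Of the 13 protein-coding genes, 12 lie on the plus strand and only *mt-Nd6* (ENSMUSG00000064368, chrM:13552-14070) on the minus strand, together with 8 of the 22 tRNA genes. *mt-Nd5* (chrM:11742-13565) and *mt-Nd6* run towards each other and share their last 14 bases. This stretch is shown because *mt-Nd6* was called in all 4 comparisons of groups below. It is written on the plus strand, chrM:13544-13573, with the shared bases in capitals.
mt-Nd5 and mt-Nd6: atactcaaTTAATCTCGAGTAAtctcgata
The library kit keeps the strand of the RNA, but the strand setting of the counting is not given in the sources used here. If strand was ignored, RNA of the opposite strand across *mt-Nd6* cannot be told apart from its mRNA.

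A stretch of chromosome 1 (chr1:24650616-24655269, minus strand) repeats mitochondrial bases 6390 to 11042. The 4654 aligned bases hold 2 substitutions and 1 inserted base. The whole of *mt-Co2*, *mt-Atp8*, *mt-Atp6*, *mt-Co3*, *mt-Nd3* and *mt-Nd4l* lies inside it, with 63.6% of *mt-Nd4* and 31.3% of *mt-Co1*. The 1 base that separates *mt-Nd3* (ENSMUSG00000064360, chrM:9459-9806) from its copy Gm28438 is the third base of the gene. In T9461C the mitochondrial base is written first and positions count along the mitochondrial chromosome. The sequences below are shown because the sum of this gene and its copy fell most in 3xKD ESCs. Both run in the direction of the gene, with the differing base in capitals, from chrM:9447-9475 and chr1:24652184-24652212.
mt-Nd3: cagaagagagtaatTaacctgtacactgt
Gm28438: cagaagagagtaatCaacctgtacactgt
Within the 6 genes that lie wholly inside the copy, a read that misses this base has the same letters at both places.

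The deposited tables split the reads of these genes between the mitochondrial gene and its copy. The copies took 73.4% of the counts of the 6 pairs whose copy had at least 100 counts. The share was 83.3% for *mt-Atp6* and its copy Gm10925, 81% for *mt-Co2* and Gm28661, 80.8% for *mt-Co3* and Gm28437, 83.8% for *mt-Nd4l* and Gm10222, 62.8% for *mt-Nd3* and Gm28438 and 7.37% for *mt-Nd4* and Gm28439. The split moved between libraries, also within 1 group. Over all 12 libraries, the copy of *mt-Nd3* held between 44.2% and 100% of the counts of a library. The deposited value of *mt-Nd3* was thus 0 in 3xKD ESCs replicate 2. The copy of *mt-Co3* held between 67% and 94.2% over the same libraries. The copy of *mt-Co1*, Gm29216, had 14 counts in all 12 libraries against 409407 for *mt-Co1*.

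Adding the copies back narrowed the spread. The largest coefficient of variation within a group was 97.5% for *mt-Nd3* as deposited and 11% for the sum of *mt-Nd3* and its copy, 69.1% and 4.16% for *mt-Co3*, 51.9% and 6.97% for *mt-Atp6*, 51.3% and 13.8% for *mt-Co2*, and 51.6% and 17.6% for *mt-Nd4l*. For *mt-Nd4*, whose copy took few reads, it was 17.8% and 17.5%. Which of the 2 places a read came from cannot be told apart, so the sums stand for both together. No annotated nuclear gene covers the copy of *mt-Atp8*, whose deposited counts were used alone. Deposited values are given below for every gene, with the sums beside them for the genes with a copy.

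**Figure D1:**
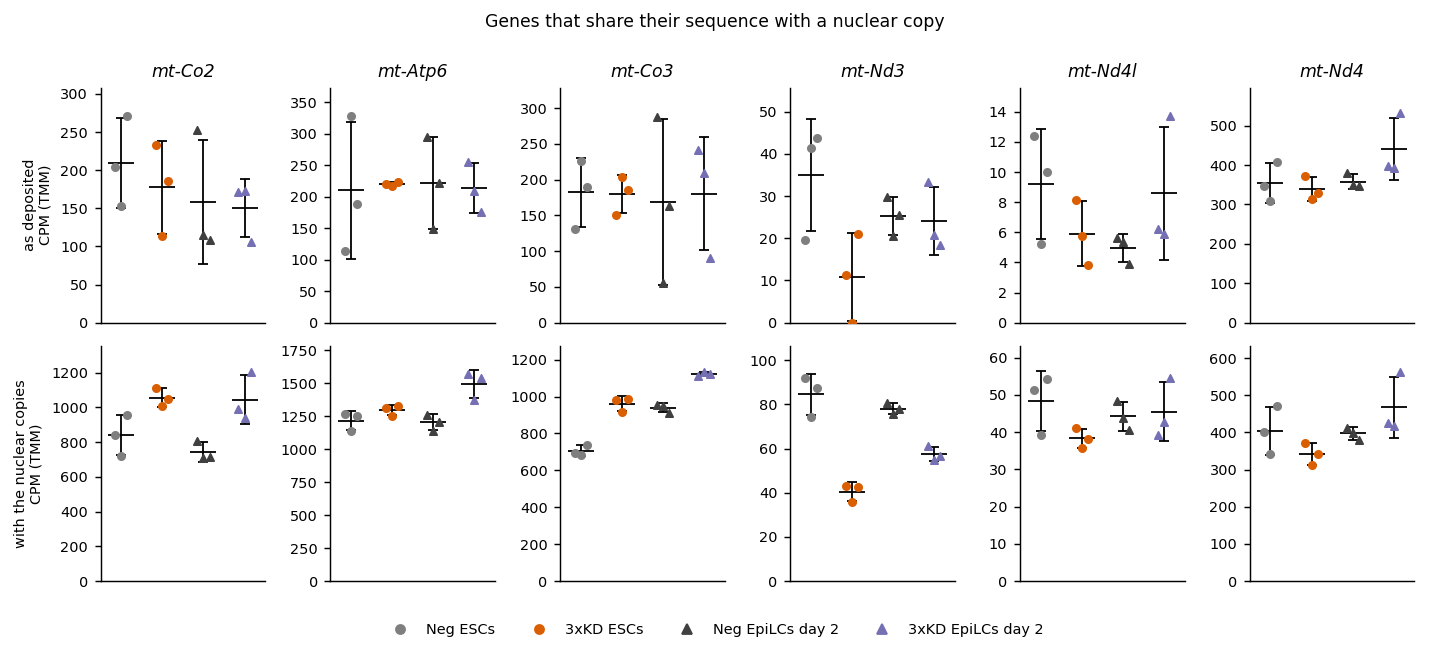
CPM (TMM-normalized, linear axes from 0) of the 6 genes with a nuclear copy of at least 100 counts in the 12 libraries, as deposited (top) and with the nuclear copies added (bottom). Points are libraries, horizontal lines are means of 3 and bars are SD. For *mt-Co3* in Neg EpiLCs day 2 the deposited values run from 55 to 287 CPM and the sums from 912 to 957 CPM.

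As a share of all counts, the 13 protein-coding genes made up 0.498% ± 0.0672 in Neg ESCs, 0.504% ± 0.0287 in 3xKD ESCs, 0.426% ± 0.0345 in Neg EpiLCs and 0.516% ± 0.0262 in 3xKD EpiLCs (SD, n = 3 each). With the copies added these shares were 0.729% ± 0.0863, 0.782% ± 0.0333, 0.668% ± 0.0214 and 0.844% ± 0.0572 (SD, n = 3 each). The groups separated in 1 comparison, 3xKD against Neg EpiLCs, where the 3xKD share was 1.26 times the Neg share with the copies added. Replicate 3 was the highest of the 3xKD EpiLC libraries, at 0.909% against 0.824% and 0.8%. The exact permutation test (two-sided) gave p = 0.1, the smallest that 3 against 3 libraries allow, and an adjusted value of 0.4 over the 12 comparisons of shares. In ESCs the shares of 3xKD and Neg overlapped (exact permutation p = 0.5 with copies). In bulk RNA, fewer cells of a type and less RNA per cell cannot be told apart.

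Levels of different genes were compared per annotated length, as CPM per kilobase averaged over the 12 libraries with the copies added. *mt-Atp6*, a subunit of the ATP synthase, stood at 1911 CPM per kilobase. The 3 catalytic-core subunits of complex IV followed, *mt-Co1* at 1397, *mt-Co2* at 1347 and *mt-Co3* at 1189 CPM per kilobase. *mt-Atp8* stood at 599.6, *mt-Cytb*, the cytochrome b of complex III, at 476, and *mt-Nd1* at 389 CPM per kilobase. The other complex I genes were lower: *mt-Nd4* at 292, *mt-Nd2* at 255, *mt-Nd5* at 205, *mt-Nd3* at 187, *mt-Nd4l* at 149 and *mt-Nd6* at 99.3 CPM per kilobase. Over the 12 libraries the ranges of *mt-Co1* (1027 to 1812) and *mt-Co2* (1038 to 1762) overlapped, as did those of every other pair of neighbours in this order of the protein-coding genes except *mt-Co3* (874 to 1447) and *mt-Atp8* (451 to 722). The order also differed between the groups. In 3xKD ESCs the mean of *mt-Nd6* (162) was above those of *mt-Nd4l* (129) and *mt-Nd3* (117), and in Neg EpiLCs the mean of *mt-Co3* (1198) was above that of *mt-Co1* (1106). As deposited, without the copies, *mt-Atp6* stood at 318, *mt-Co2* at 254 and *mt-Co3* at 227 CPM per kilobase. In the deposited TPM, *mt-Atp8* averaged 8476 TPM against 1069 TPM for *mt-Co1*. The tables give *mt-Atp8* (204 bases) an effective length of 9.4 bases, by which TPM divides, and its TPM were not used further. The effective length was 98 bases for *mt-Nd3* (348 bases) and 48.7 bases for *mt-Nd4l* (297 bases). The places of these short genes in the order therefore depend on which length is used.

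**Figure D2:**
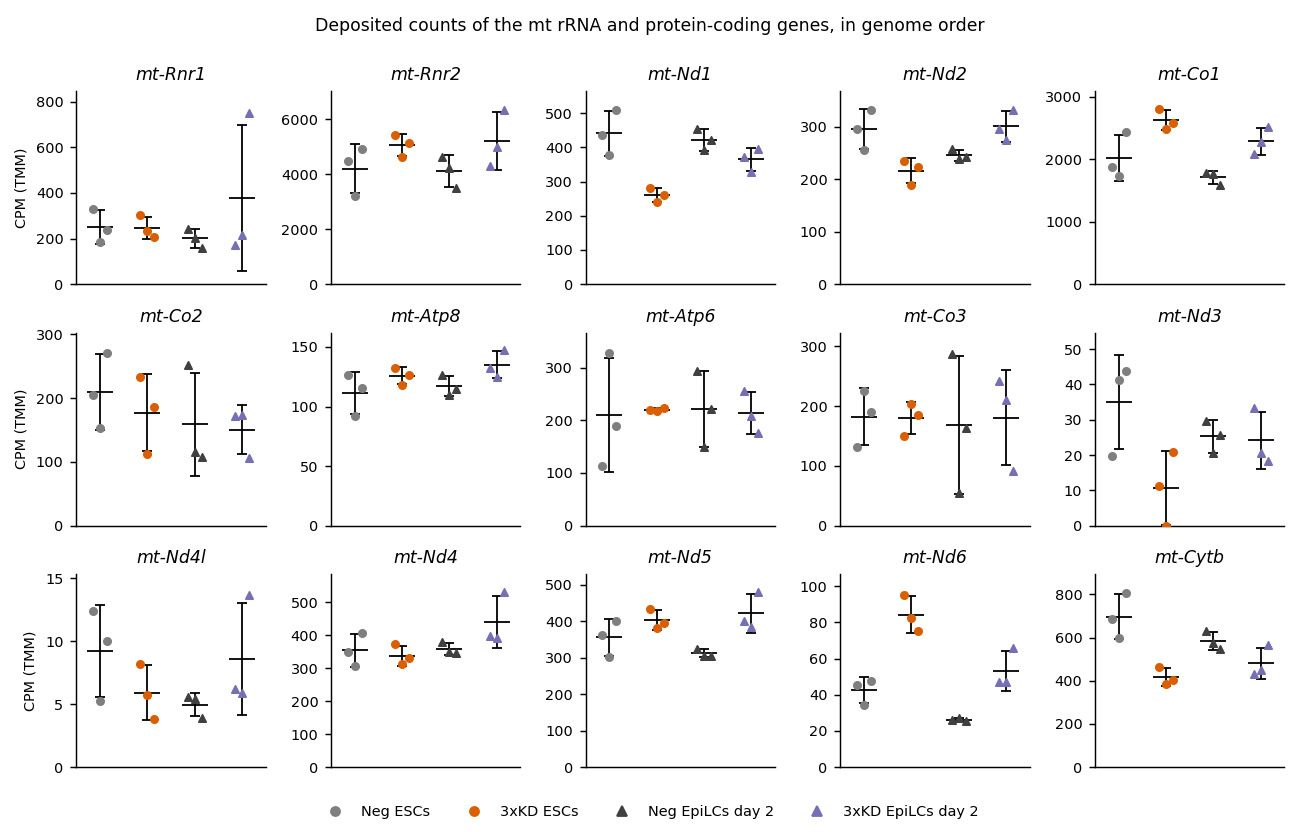
CPM (TMM-normalized, linear axes from 0) as deposited for the 2 rRNA and 13 protein-coding genes in genome order, with 1 point per library, the mean of 3 as a horizontal line and the SD as bars. *mt-Nd6* lies between 75 and 95.3 CPM in the 3xKD ESC libraries and between 34.4 and 47.8 CPM in the Neg ESC libraries, while the means of *mt-Nd1* and *mt-Cytb* are lowest in 3xKD ESCs.

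In ESCs, a few of the mitochondrial mRNAs differed between 3xKD and Neg, in opposite directions. *mt-Nd6* rose 1.98-fold, and *mt-Nd1* and *mt-Cytb* fell to 0.59 and 0.598 of their Neg level. A gene was called at an adjusted p under 0.01 (edgeR quasi-likelihood test, Benjamini-Hochberg over 25446 genes) and an absolute log2 fold change over 0.58. Of the 13 protein-coding genes as deposited, 1 was called higher and 2 lower, where 8.5% of all genes tested were called higher and 6.78% lower. In a set of 13 genes, 1 or 2 calls are near this background. The median log2 fold change of the 13 was -0.07, against 0.03 over all genes tested.

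*mt-Nd6*, a membrane subunit of complex I, had 45.3, 34.4 and 47.8 CPM in Neg ESCs and 95.3, 82.5 and 75 CPM in 3xKD ESCs. The groups did not overlap, and the log2 fold change was 0.99 (SE 0.128, edgeR adjusted p = 8.5e-06). *mt-Nd1* (ENSMUSG00000064341, chrM:2751-3707), also a membrane subunit of complex I, had 437, 377 and 509 CPM in Neg ESCs and 281, 241 and 259.6 CPM in 3xKD ESCs. All 3 knockdown libraries lay below all 3 Neg libraries, with a log2 fold change of -0.76 (SE 0.092, edgeR adjusted p = 3.8e-06).

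*mt-Cytb* (ENSMUSG00000064370, chrM:14145-15288) had 686, 598 and 807 CPM in Neg ESCs and 462, 385 and 405 CPM in 3xKD ESCs. The groups did not overlap here either, and the log2 fold change was -0.74 (SE 0.106, edgeR adjusted p = 2.3e-05). *mt-Nd2* had 297, 257 and 333 CPM against 235, 189.5 and 224 CPM. It passed the p-value limit but not the fold limit, at a log2 fold change of -0.45 (SE 0.089, edgeR adjusted p = 0.00053).

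*mt-Nd3* was called in ESCs with its copy added and not without it. As deposited it had 19.7, 41.4 and 43.8 CPM in Neg ESCs and 11.3, 0 and 20.9 CPM in 3xKD ESCs, and it was not called (log2 fold change -1.74, SE 0.567, edgeR adjusted p = 0.022). Summed with its copy it had 92, 74.1 and 87.5 CPM in Neg ESCs and 43.1, 35.8 and 42.7 CPM in 3xKD ESCs. The sum fell by 1.06 on the log2 scale (SE 0.0781, edgeR adjusted p = 1.1e-08), and all knockdown libraries lay below all Neg libraries. With the copies added, 1 of the 13 genes was called higher and 3 lower, where 15.3% of 25437 genes were called in either direction.

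The 3 complex IV genes went the other way from *mt-Nd1*, *mt-Nd3* and *mt-Cytb*, with smaller differences. *mt-Co1* had 1870.1, 1738 and 2432 CPM in Neg ESCs and 2799, 2488 and 2582 CPM in 3xKD ESCs. All knockdown libraries were above all Neg libraries, and its log2 fold change of 0.38 (SE 0.0968, edgeR adjusted p = 0.0043) passed the p-value limit but not the fold limit. With its copy, *mt-Co3* had 695, 685 and 739 CPM against 983, 914 and 984 CPM. Its log2 fold change of 0.44 had an SE of 0.0385 (edgeR adjusted p = 7.9e-08), under the fold limit. As deposited the value for *mt-Co3* was -0.02 (SE 0.405). The sum of *mt-Co2* and its copies gave 0.33 (SE 0.0928, edgeR adjusted p = 0.0082) against -0.24 (SE 0.303) as deposited.

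The other 5 protein-coding genes did not pass the p-value limit in ESCs. With copies, *mt-Nd4l* gave a log2 fold change of -0.33 (edgeR adjusted p = 0.036), *mt-Nd4* -0.24 (0.096), *mt-Atp6* 0.09 (0.21), *mt-Nd5* 0.18 (0.13) and *mt-Atp8* 0.18 (0.13). By complex, 5 of the 7 complex I genes had a log2 fold change below 0, all 3 complex IV genes and both complex V genes one above 0, and the 1 complex III gene one below 0. Some genes with opposite values are neighbours on the same strand, and these pairs were picked after their values were seen. *mt-Nd2* lies upstream of *mt-Co1*, and *mt-Co3* upstream of *mt-Nd3*, with nothing but tRNA genes annotated between them. Other neighbours, such as *mt-Nd1* and *mt-Nd2*, had values of the same sign. As deposited, *mt-Co3* (-0.02) and *mt-Nd3* (-1.74) were both below 0.

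**Figure D3:**
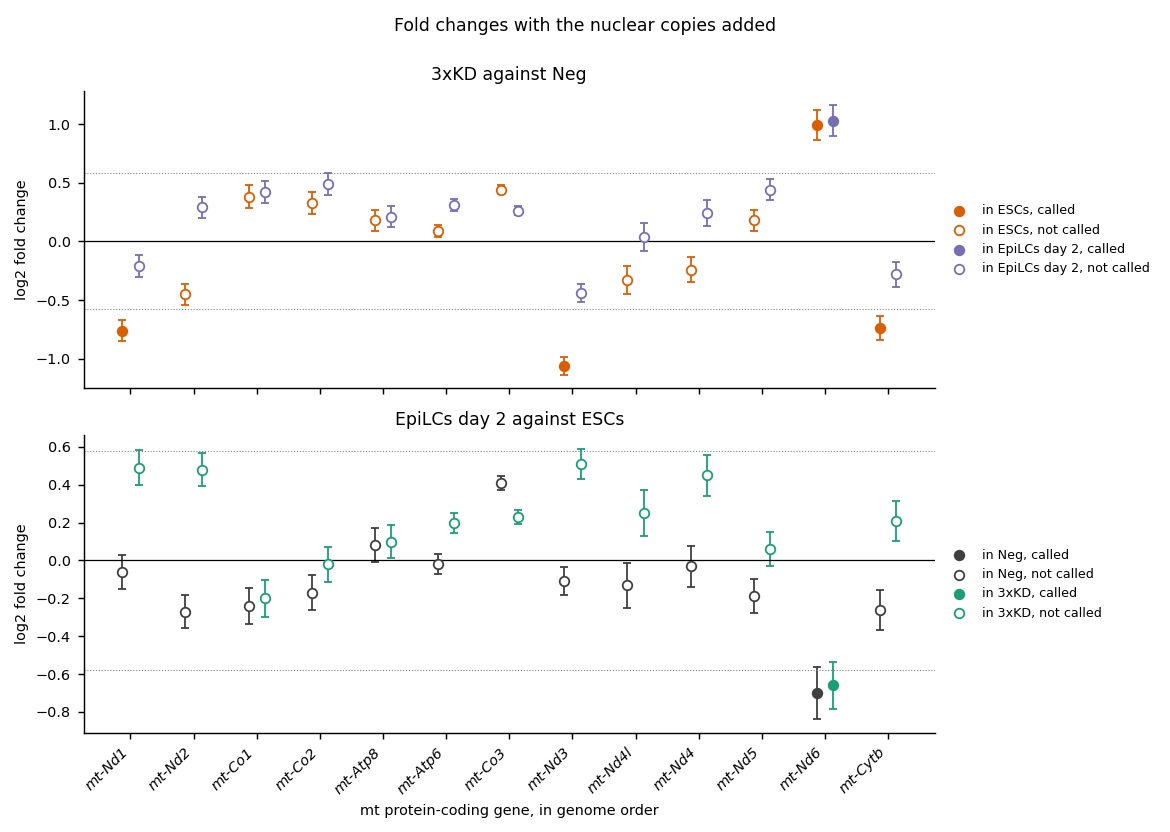
Log2 fold changes with SE of the 13 protein-coding genes in genome order, with the nuclear copies added, for 3xKD against Neg (top) and EpiLCs day 2 against ESCs (bottom). Filled points were called and open points were not, and dotted lines mark the fold limit of 0.58. In ESCs *mt-Nd1*, *mt-Nd3* and *mt-Cytb* lie between -0.74 and -1.06 while *mt-Nd6* lies at 0.99, and in EpiLCs only *mt-Nd6* (1.03) is called.

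In EpiLCs day 2, *mt-Nd6* rose 2.04-fold in 3xKD cells and no other protein-coding gene was called. It had 25.9, 27.2 and 25.3 CPM in Neg EpiLCs and 46.8, 46.9 and 65.9 CPM in 3xKD EpiLCs, a log2 fold change of 1.03 (SE 0.136, edgeR adjusted p = 1.1e-05). 3xKD EpiLCs replicate 3 was the highest of the 3 knockdown libraries, and none of them reached down to a Neg library. The background was 7.88% of all genes called higher and 5.35% lower, and 1 call among 13 genes is near it. The median over the 13 genes was 0.21 as deposited and 0.26 with the copies added, against 0.03 over all genes, and 10 of 13 were above 0 with the copies added. With the copies added, *mt-Nd6* was again the 1 gene called (13.3% of all genes in either direction).

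Below the fold limit, 6 more genes passed the p-value limit in EpiLCs with the copies added. The share of all genes past this limit alone is not given here, so the count has no background. *mt-Co2* (0.49, SE 0.093, edgeR adjusted p = 0.00041), *mt-Nd5* (0.44, SE 0.0898, 0.00084), *mt-Co1* (0.42, SE 0.0966, 0.0021), *mt-Atp6* (0.31, SE 0.0534, 0.00016) and *mt-Co3* (0.26, SE 0.0383, 3.6e-05) were higher on the log2 scale, and *mt-Nd3* was lower (-0.44, SE 0.076, 0.00017). *mt-Co3* with its copy had 957, 949 and 912 CPM in Neg EpiLCs and 1111, 1134 and 1124 CPM in 3xKD EpiLCs. *mt-Nd3* with its copy had 80.8, 75.5 and 78.1 CPM in Neg EpiLCs and 61.1, 55 and 56.8 CPM in 3xKD EpiLCs. In both genes the libraries of the groups did not overlap. *mt-Nd1* and *mt-Cytb*, called in ESCs, had log2 fold changes of -0.21 (edgeR adjusted p = 0.085) and -0.28 (0.048) in EpiLCs.

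The difference of the knockdown effect between the states was tested as an interaction, EpiLCs minus ESCs, without a fold limit. As deposited, 2 of the 13 genes were called, both higher, where 4.76% of all genes were called higher and 5.26% lower. *mt-Nd2* differed by 0.75 on the log2 scale (SE 0.126, edgeR adjusted p = 0.00048), from -0.45 in ESCs to 0.29 in EpiLCs. *mt-Nd1* differed by 0.55 (SE 0.129, edgeR adjusted p = 0.0066), from -0.76 to -0.21. With the copies added *mt-Nd3* was called as well, with a difference of 0.62 (SE 0.109, edgeR adjusted p = 0.00067), so that 3 of 13 were called against 10% of all genes in either direction. All 3 encode subunits of complex I, as do 7 of the 13 genes, and the rest of these 7 were not called. The difference was 0.04 (SE 0.186, edgeR adjusted p = 0.93) for *mt-Nd6* and 0.46 (SE 0.149, 0.044) for *mt-Cytb*. With transcript-length offsets none of the 13 genes was called, and the adjusted p was 0.0123 for *mt-Nd2* and 0.06 for *mt-Nd1*. The *mt-Nd1* call was also lost when any 1 of 8 libraries was left out (adjusted p up to 0.0286), whereas *mt-Nd2* stayed called without each of the 12 (adjusted p up to 0.00281).

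Between the states, *mt-Nd6* fell from ESCs to EpiLCs day 2 in both lines. In Neg cells it went from a mean of 42.5 ± 7.13 to 26.1 ± 0.946 CPM (SD, n = 3 each), a log2 fold change of -0.7 (SE 0.138, edgeR adjusted p = 0.00044). In 3xKD cells it went from 84.3 ± 10.3 to 53.2 ± 11 CPM (SD, n = 3 each), a log2 fold change of -0.66 (SE 0.125, edgeR adjusted p = 0.00034). The groups did not overlap in either line. No other protein-coding gene was called, as deposited or with the copies added. All genes gave 9.78% higher and 11% lower in Neg, and 9.42% higher and 9.32% lower in 3xKD, as deposited, and 20.8% and 18.8% in either direction with the copies added. These comparisons share their libraries with those of 3xKD against Neg. The 3xKD call was lost without 3xKD ESCs replicate 1 (-0.55) or without 3xKD EpiLCs replicate 1 (-0.58, at the fold limit).

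The other genes differed less between the states. The median over the 13 with the copies added was -0.13 in Neg and 0.21 in 3xKD, against 0.01 over all genes in both. In Neg, *mt-Co3* with its copy had a log2 fold change of 0.41 (SE 0.0385, edgeR adjusted p = 1.2e-07), and it was the 1 gene that was higher in EpiLCs past the p-value limit. In 3xKD, 6 genes were higher past the p-value limit and under the fold limit. These were *mt-Nd3* (0.51), *mt-Nd1* (0.49), *mt-Nd2* (0.48), *mt-Nd4* (0.45), *mt-Co3* (0.23) and *mt-Atp6* (0.2), with edgeR adjusted p between 4.8e-05 and 0.0047. Here too the share of all genes past the p-value limit alone is not given, so the counts have no background.

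Ratios between mitochondrial genes of 1 library do not depend on how libraries are scaled to each other. The ratios given here were chosen after the values of the genes were seen and are a description. *mt-Nd6* amounted to 0.636%, 0.541% and 0.586% of the summed counts of the 12 plus-strand mRNAs (copies added) in Neg ESCs and to 1.16%, 1.12% and 0.965% in 3xKD ESCs. In EpiLCs it amounted to 0.362%, 0.406% and 0.387% in Neg and 0.593%, 0.602% and 0.734% in 3xKD. *mt-Nd1* amounted to 23.4%, 21.7% and 20.9% of *mt-Co1* in Neg ESCs and to 10%, 9.69% and 10.1% in 3xKD ESCs, which was 0.451 of the Neg ratio. In EpiLCs this ratio was 25.5%, 22.2% and 26.6% in Neg and 17.9%, 14.4% and 15.8% in 3xKD. *mt-Cytb* amounted to between 33.2% and 36.7% of *mt-Co1* in Neg ESCs, between 15.5% and 16.5% in 3xKD ESCs, between 32.5% and 35.5% in Neg EpiLCs and between 19.7% and 22.5% in 3xKD EpiLCs. For all 3 ratios the 3xKD and Neg libraries did not overlap in either state.

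**Figure D4:**
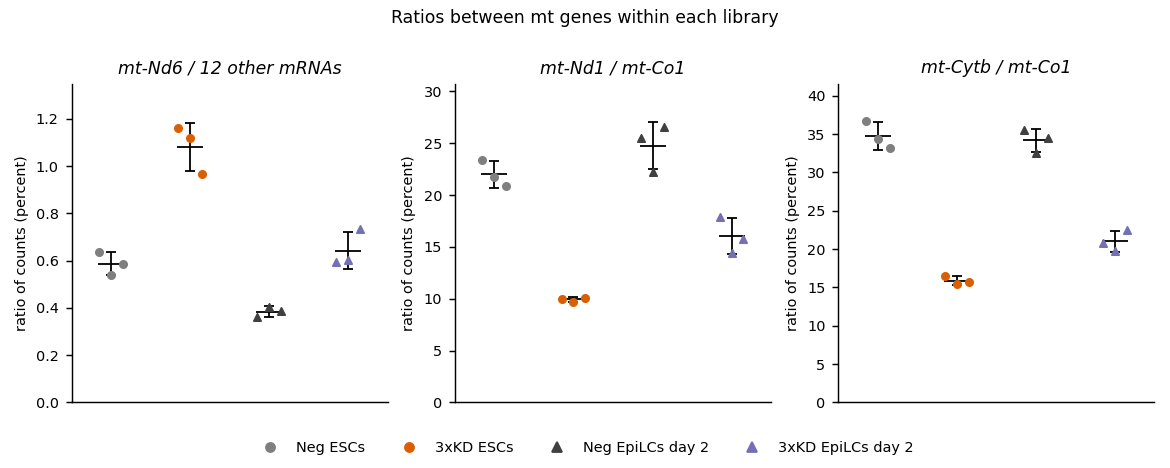
Counts of 1 gene as a percent of others in the same library (linear axes from 0), with 1 point per library, the mean of 3 as a horizontal line and the SD as bars. *mt-Nd6* is set against the sum of the 12 plus-strand mRNAs with copies added, and *mt-Nd1* and *mt-Cytb* against *mt-Co1*. The *mt-Nd1* to *mt-Co1* ratio is between 9.69% and 10.1% in 3xKD ESCs and between 20.9% and 23.4% in Neg ESCs.

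The rRNA genes are reported apart from the mRNAs because the libraries were made after rRNA depletion, so their counts are what the depletion left. *mt-Rnr1* (12S rRNA, chrM:70-1024) had 330.3, 185 and 237 CPM in Neg ESCs, 301, 233 and 206 CPM in 3xKD ESCs, 243, 202 and 157 CPM in Neg EpiLCs and 172, 214 and 749 CPM in 3xKD EpiLCs. The highest value belonged to 3xKD EpiLCs replicate 3, at 12004 counts where the other 11 libraries had between 2479 and 4906. *mt-Rnr2* (16S rRNA, chrM:1094-2675) had 4505, 3221 and 4909 CPM in Neg ESCs, 5439, 4648 and 5153 CPM in 3xKD ESCs, 4640.1, 4242 and 3508 CPM in Neg EpiLCs and 4297, 4985 and 6355 CPM in 3xKD EpiLCs. Neither was called in any comparison. For 3xKD against Neg EpiLCs the log2 fold change of *mt-Rnr1* was 0.92 (SE 0.393, edgeR adjusted p = 0.08), and it was -0.06 (edgeR adjusted p = 0.886) without 3xKD EpiLCs replicate 3. *mt-Rnr2* gave 0.27 (SE 0.145, edgeR adjusted p = 0.16) in ESCs and 0.34 (SE 0.145, edgeR adjusted p = 0.081) in EpiLCs. *mt-Rnr1* was between 4% and 7.33% of *mt-Rnr2* in 11 libraries and 11.8% in 3xKD EpiLCs replicate 3. The part of the depletion in these values was not tested.

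The tRNA genes were almost without counts. Over the 12 libraries and 188271806 counts, the 22 tRNA genes (59 to 75 bases long) had 24 counts together, and 13 of them had none. A count of 0 in 1 library allows a level of up to 0.153 CPM in the deepest and 0.267 CPM in the shallowest library (3 counts, counting error only). Only *mt-Tl1*, the leucine tRNA between *mt-Rnr2* and *mt-Nd1*, reached the minimum of 10 counts, with 13 in all and at most 3 in a library. It was not called in any comparison. The tables give these genes an effective length of 2.7 to 3 bases. With 24 counts in all, a difference in tRNA level was not detectable with these libraries.

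Nuclear genes that make and handle mitochondrial RNA were described from lists. Of 94 such genes in 6 lists, 5 were higher and 13 lower in 3xKD ESCs than in Neg ESCs past both limits (median -0.2). Of all genes tested, 8.5% were called higher and 6.78% lower. In EpiLCs 2 were higher and 13 lower in 3xKD (median -0.23), where 7.88% of all genes were called higher and 5.35% lower. These shares are the background for each list below. The list of mtDNA transcription held 11 genes, of which 3 were called lower and none higher in each state (median -0.44 in ESCs and -0.41 in EpiLCs, against 0.03 over all genes). *Tfb2m*, which helps the polymerase to open the promoter, fell by 1.28 in ESCs (SE 0.0831, edgeR adjusted p = 2.9e-09) and by 0.66 in EpiLCs (SE 0.0792, 3.7e-06) on the log2 scale. *Mterf4* fell by 0.65 and 0.74 and *Tefm*, the elongation factor, by 0.64 and 0.73. *Tefm* lies outside the rule for named genes and was chosen after its values were seen, as were *Polrmt* and *Tfam*. *Polrmt*, the polymerase, gave 0.17 (edgeR adjusted p = 0.011) and 0.18 (0.006), and *Tfam*, which binds promoters and packages the DNA, -0.31 and -0.41, under the fold limit.

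In the list of mt-RNA processing and stability, 4 of 20 genes were called lower and none higher in each state (medians -0.26 and -0.35), against 6.78% of all genes lower in ESCs and 5.35% in EpiLCs. *Grsf1*, an RNA-binding protein of the granules in which mitochondrial transcripts are processed, fell by 1.12 in 3xKD ESCs (SE 0.0417, edgeR adjusted p = 6.1e-12), with 0.13 (0.024) in EpiLCs, and the difference between the states was 1.25 (SE 0.0603, edgeR adjusted p = 9.2e-10). From ESCs to EpiLCs it fell by 2.06 in Neg and by 0.81 in 3xKD. *Fastkd5*, needed to cut out mRNAs that no tRNA flanks, fell by 0.83 in ESCs and by 0.95 in EpiLCs, and *Fastkd3* fell by 0.89 in ESCs. The other called members were *Fastkd2* (-0.77 in ESCs and -0.66 in EpiLCs) and, in EpiLCs, *Elac2*, which cuts the 3′ ends of tRNAs (-0.75), and *Tbrg4* (-0.66). These 3 were chosen after their values were seen. Of 23 genes for modification of mitochondrial rRNA and tRNA, 4 were called lower in ESCs and 3 in EpiLCs, and none higher, against the same shares of all genes. *Mrm3*, a methyltransferase of the 16S rRNA, fell by 1.13 and 1.03, and *Mettl17*, which acts on the small mitoribosomal subunit, by 1.06 and 0.81. Named after their values were seen, *Mrm2* gave -0.69 and -0.65, and *Gtpbp3* -0.62 in ESCs.

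The list of mtDNA replication and maintenance was mixed, with 3 of its 19 genes raised and 1 lowered in 3xKD ESCs, and 1 raised and 2 lowered in 3xKD EpiLCs. In a list of this length 1 or 2 genes are near the background of 5.35% to 8.5%. *Twnk*, the replicative helicase, fell by 1.19 in ESCs (SE 0.0454, edgeR adjusted p = 8e-12) and by 0.73 in EpiLCs. *Top1mt*, the mitochondrial topoisomerase, rose by 0.91 in EpiLCs (SE 0.15, edgeR adjusted p = 0.00011), with 0.55 in ESCs. The other called members, named after their values were seen, were *Polg2* (0.7), *Primpol* (0.64) and *Rrm2b* (0.63) in ESCs and *Exog* (-0.66) in EpiLCs. Among 14 genes for translation factors and insertion, *Taco1*, a translational activator of *mt-Co1*, fell by 0.68 in ESCs and *Mtif3*, an initiation factor, by 0.67 in EpiLCs. *Cox18*, named after its value was seen, was called higher in ESCs (0.61). Of the 7 nuclear regulators of biogenesis, *Ppargc1b* was called in both states, rising by 0.89 in ESCs and 1.02 in EpiLCs.

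From ESCs to EpiLCs, 9 of the 94 genes were raised and 6 lowered in Neg (median 0.1), and 6 raised and 4 lowered in 3xKD (median 0.07). These counts were near or below the background of 9.78% higher and 11% lower in Neg and 9.42% and 9.32% in 3xKD. *Dna2*, a nuclease and helicase, fell by 0.97 in Neg (SE 0.0685, edgeR adjusted p = 3.9e-09) and by 0.66 in 3xKD. In Neg *Mterf2* fell by 0.88 and *Mettl15*, a methyltransferase of the 12S rRNA, by 0.76, while *Gfm2*, a factor of ribosome recycling, rose by 0.62. *Twnk* rose by 0.99 in 3xKD.

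The nuclear-encoded partners of the 13 proteins were described in the same way. Of 74 nuclear subunits of complexes I, III, IV and V, only *Ndufb4* was called in ESCs (0.61, median of the 74 at 0.18, named after its value was seen), and none in either direction in EpiLCs (median 0.02). In the difference of the knockdown effect between the states, EpiLCs minus ESCs, 10 of the 74 were called lower and none higher (median -0.16), where 5.26% of all genes were called lower. *Atp5mc1* was among them at -0.31 (SE 0.0675, edgeR adjusted p = 0.0042). Named after their values were seen, the farthest from 0 were *Ndufab1* (-0.58) and *Atp5f1c* (-0.35). From ESCs to EpiLCs, 9 of the 74 were called lower in Neg (median -0.23) and 14 in 3xKD (median -0.37), and none higher. All genes gave 11% lower in Neg, which is near the count of the subunits, and 9.32% lower in 3xKD. *Cox5a* fell by 1.02 in Neg and 1.01 in 3xKD, *Cox6b1* by 0.88 and 1.05, and *Atp5mc1*, a subunit of the rotor ring of the ATP synthase, by 0.63 and 0.94. Of the 4 complex II subunits, none was called in either comparison of 3xKD with Neg, and *Sdhd* fell by 0.59 from ESCs to EpiLCs in 3xKD. Its knockdown effect differed between the states by -0.35 (SE 0.0816, edgeR adjusted p = 0.006).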

How the data were processed

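RNA-seq of 12 libraries (NEBNext rRNA depletion, directional, single-end) was analysed. The labels' molecule field gives polyA RNA, and the extract protocol was followed. Per the submitters' processing notes, Trim Galore 0.6.7, STAR 2.7.9a and Salmon 1.10.1 were used, and the build was GRCm39. The authors deposited expected counts (estimated, not normalized) and TPM per transcript. Here the deposited expected counts were summed per gene and rounded, and 25446 of 57180 genes with at least 10 counts in all entered the quasi-likelihood test of edgeR 4.0.16 (R 4.3.3), with TMM scaling, the 4 groups in 1 fit and Benjamini-Hochberg adjustment. The SE is the size of the log2 fold change divided by the square root of F. The model was tested on simulated data. The deposited TPM were used as an alternative for levels per length.

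Nuclear copies were found with BLAST+ 2.17.0 on GRCm39 with the GENCODE vM39 annotation (at least 95% identity over 100 bases), and 11 annotated copy genes were added to their mitochondrial genes. All 37 members were matched. The members and lists were chosen with earlier results of these data known. Named are all protein-coding and rRNA genes, tRNA genes with 100 counts (none) or called, copies with 100 counts, the guide targets, and of each nuclear list the 3 called genes with the largest change. The labels do not say whether same-numbered libraries were prepared together. Each pair of replicates differed by more than sampling noise. Alternatives were DESeq2 1.42.0, other scalings, filters, offsets, designs and thresholds, and leaving out each library.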

Additional observations from a re-analysis of the deposited data

Results flagged for a closer look

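The knockdown effect on 3 mitochondrial mRNAs differed between EpiLCs day 2 and ESCs by the interaction test of edgeR. As deposited, *mt-Nd2* differed by 0.75 and *mt-Nd1* by 0.55 on the log2 scale (EpiLCs minus ESCs). With the nuclear copies added, *mt-Nd3* differed by 0.62. All 3 were lowest in the 3xKD ESC libraries. With the copies added, 10% of all genes were called in this test in either direction. With transcript-length offsets none of the 3 was called, and the *mt-Nd1* call was lost when any 1 of 8 libraries was left out. Groups of 3 libraries were too small for the check on single libraries far from the others.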

How the results depend on the processing

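The knockdown calls of *mt-Nd6* in both states and of *mt-Nd1* and *mt-Cytb* in ESCs kept their direction and passed both limits in all 12 fits that left out 1 library and in all 16 other settings. The number of protein-coding genes called moved in other ways. Without a filter on low counts 5, 2, 2 and 2 genes were called in 3xKD against Neg ESCs, 3xKD against Neg EpiLCs, and EpiLCs against ESCs in Neg and in 3xKD, and 7 in the difference between the states. Adjusted p-values were then as small as 7.05e-118 (*mt-Rnr1*, 3xKD against Neg EpiLCs), and the cause was not tested. With the limit on the adjusted p at 0.05 and none on the fold, 6, 6, 3 and 4 genes were called. For this setting, the one without a filter and those below, shares of all genes are not given, so the counts have no background. For the difference, transcript-length offsets gave 0 calls, as deposited and with copies, and the cause was not tested.

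Leaving out 1 library gave 1 to 2 calls between the states in Neg (2 without Neg ESCs replicate 2, where *mt-Nd4l* at -1.17 was added), 0 to 1 in 3xKD (0 without 3xKD ESCs replicate 1 or 3xKD EpiLCs replicate 1, also with copies) and 1 to 2 for the difference. As deposited, *mt-Nd3* was called in 3xKD ESCs without 3xKD ESCs replicate 3 (-2.65).

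With the nuclear copies added, the share of counts was 0.729% in Neg ESCs, 0.782% in 3xKD ESCs, 0.668% in Neg EpiLCs and 0.844% in 3xKD EpiLCs. With copies, DESeq2 called 4 genes in the difference, *mt-Co3* among them at -0.17 (DESeq2 adjusted p = 0.00421), where its deposited value was 0.12.

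The replicate number as a block was tried, although the labels do not say whether the numbers pair the libraries. Correlations of same-numbered libraries lay between -0.158 and 0.123, and 11 of 36 best matches were with the own number. With copies and the block, 4 genes were called in the difference, *mt-Atp6* among them at 0.22 (edgeR adjusted p = 0.00583), where its deposited value was -0.12. The block moved no other number of called genes by over 1.5 times.

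Of 2985 values of single genes under an alternative, 2909 neither gained nor lost a call nor turned a called value around, 24 lost a call, 50 gained one and 2 reversed. Alternatives with the copies were chosen after seeing the data, except the copies alone. Only 1 of the 22 tRNA genes had enough counts to be tested.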
